A study of Sisymbrium orientale with 12 samples.

Results

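Jasmonates are lipid hormones that plants make after wounding, in development and against chewing insects. In Arabidopsis a lipoxygenase (LOX2), an allene oxide synthase (AOS) and allene oxide cyclases (AOC) turn linolenic acid of the chloroplast membranes into a cyclic precursor, which the reductase OPR3 and the beta-oxidation enzymes of the peroxisome shorten to jasmonic acid. Coupled to isoleucine, the hormone brings JAZ repressors to the receptor COI1 for destruction and so frees the transcription factor MYC2, which switches on jasmonate-responsive genes, among them LOX2, the JAZ genes themselves and the vegetative storage proteins (VSP).

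The genes described here are the contigs (assembled transcripts) of the Brassicaceae weed Sisymbrium orientale whose closest Arabidopsis locus is LOX2 (AT3G45140), AOS (AT5G42650), AOC1 (AT3G25760), AOC2 (AT3G25770), OPR3 (AT2G06050), MYC2 (AT1G32640), JAZ1 (AT1G19180), JAZ10 (AT5G13220), VSP1 (AT5G24780) or VSP2 (AT5G24770). There were 14 such contigs of 33277 in the table, and they belonged to 8 of the 16386 loci. No contig was assigned to AOC1 or VSP2. The remaining 8 loci held 4 contigs for LOX2, 3 for JAZ10, 2 for OPR3 and a single contig for each of the other 5. Contig names carry an assembly mark, and 12 of the 14 were marked S and 2 were marked R (the MYC2 contig and the shorter OPR3 contig). In Arabidopsis the VSP genes and the AOC genes are close relatives of each other, so the assignment of a contig to VSP1 or AOC2 within its family is uncertain.

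The study sequenced leaf mRNA of 12 lines that are either resistant or susceptible to the synthetic auxin herbicide 2,4-D. Cross A (F4 generation) gave the resistant lines R202, R206 and R221 and the susceptible lines S205, S207 and S242. Cross B (F3 generation) gave the resistant lines RP6 and RP8 and the susceptible lines SP3, SP7, SP9 and SRP1. All plants were untreated and the youngest expanded leaf was taken when plants had 4 leaves, so none of the libraries is of a treated plant. Plants grew at 25 °C by day and 20 °C by night with 16 h of light. There was 1 library per line, made from a number of plants the labels leave out, and cross cannot be told apart from generation.

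Values are the authors' normalized read signal, a read count divided by a scaled library size (CPM), and are summed here over the contigs of a locus because contigs of 1 locus can share reads. Libraries held 100976000 to 145937000 reads, and 3 reads corresponded to 0.0196 to 0.0299 CPM. The lowest count among the 8 loci was 37 reads (AOC2 in R202). Contigs of the Rubisco small chain took 6.62% of the values of S205, 5.17% of those of SP9 and 3.39% to 4.60% of the others. By phenotype, the share was 3.39% to 3.79% in the resistant lines and 3.49% to 6.62% in the susceptible lines. Leaf mesophyll markers were present as 6 of 6, and 0 of 5 root markers had a contig. Of the markers of other tissues, 1 of 5 flower genes (PI, 0.904 to 3.31 CPM) and 1 of 4 seed genes (1.25 to 2.81 CPM) had a contig.

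Most of these 8 loci had a wide range from line to line, and none passed the test between herbicide phenotypes or between crosses. R202, a resistant line, and S205, a susceptible line, held the highest or second highest level of most of them. R202 was the highest line for 5 of the 8 loci and in the top 2 for 7, and S205 was the highest for 3 and in the top 2 for 6. Over all 16051 loci tested, R202 was the highest line for 12.2% and S205 for 24.5%. R202 was in the top 2 for 20.1% of them and S205 for 33.1%. The same lines were also the lowest for 14.3% (R202) and 25.9% (S205) of all loci, so S205 often stood at either extreme. Relative to the median of the 12 lines, the 7 loci that passed the filter on low values had a median ratio of 2.50 in R202, 1.85 in S205, 1.24 in SP9 and 1.21 in RP8. The corresponding median over all loci was 0.990, 1.002, 1.003 and 1.001. Over 44 other tested loci of the jasmonate pathway and its relatives it was 1.12, 1.21, 1.16 and 1.005. That was nearer to all loci than to the members in R202, S205 and RP8, but not in SP9. Of the 45 such loci with a contig, S205 was the highest line for 21 and in the top 2 for 29. R202 was the highest for 8 of the 45 and in the top 2 for 20, and SP9 for 7 and 19. In the other 8 lines the median ratio of the 7 loci lay between 0.848 (SRP1) and 0.998 (SP3). In bulk leaf samples, fewer cells of a type and less RNA per cell cannot be told apart.

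**Figure D1:**
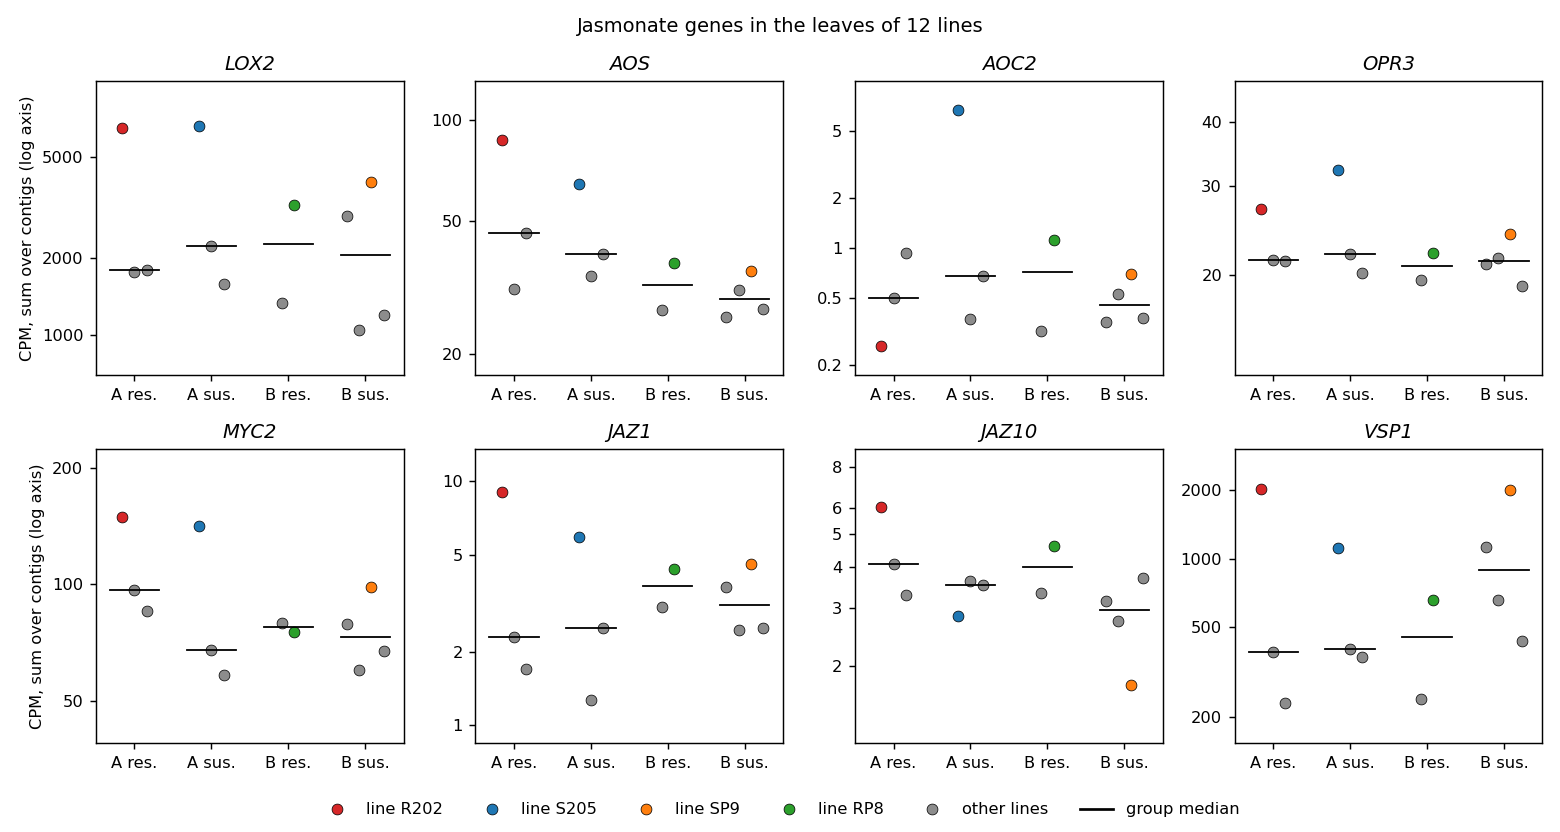
Level of each jasmonate locus in CPM (log axis, sum over contigs) in the 12 lines, by cross and phenotype (A res., 3 lines; A sus., 3; B res., 2; B sus., 4). Points are lines, with R202, S205, SP9 and RP8 coloured, and bars are group medians. R202 and S205 stand above the rest of cross A for LOX2, AOS, OPR3, MYC2, JAZ1 and VSP1, while S205 alone stands high for AOC2 and R202 but not S205 for JAZ10.

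LOX2, the chloroplast lipoxygenase at the head of the pathway, was among the most abundant leaf transcripts. Per kilobase of the longest contig its median level was 662 CPM, above 99.3% of all loci, whose median was 10.3 CPM per kilobase. Among the lines of cross A it stood at 6465, 1762 and 1799 CPM in R202, R206 and R221 and at 6609, 2234 and 1583 CPM in S205, S207 and S242. Among those of cross B it stood at 1343 and 3231 CPM in RP6 and RP8 and at 2931, 1043, 3993 and 1196 CPM in SP3, SP7, SP9 and SRP1. R202 and S205 were the 2 highest lines, SP9 and RP8 followed, and every group ran across the range of the others. The highest line exceeded the lowest 6.33-fold, more than in 95.8% of tested loci. Over the 10 lines without R202 and S205 the range was 3.83-fold, where the median over all loci was 1.57-fold.

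The 4 LOX2 contigs had 3045, 2792, 1694 and 514 bases. Their shares of the LOX2 sum were not constant. The 2792-base contig held 36.1% to 37.6% in every line. The 3045-base contig held 44.7% (R221) to 54.2% (SP9), and the 1694-base contig held 8.63% (SP9) to 16.3% (S242). The 514-base contig held 1.11% (SP9) to 2.69% (R221). The 2 shorter contigs took their smallest shares in SP9 and S205, 2 of the 3 lines with the most LOX2. The ratio of highest to lowest line was 5.49 for the 1694-base contig and 6.70 for the 3045-base contig.

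AOS makes the allene oxide from the LOX2 product. Its median level was 18.0 CPM per kilobase, above 67.0% of loci. Cross A lines had 87.3, 31.2 and 45.9 CPM in R202, R206 and R221 and at 64.4, 34.3 and 39.9 CPM in S205, S207 and S242. Cross B lines had 27.0 and 37.3 CPM in RP6 and RP8 and at 25.9, 31.1, 35.5 and 27.2 CPM in SP3, SP7, SP9 and SRP1. R202 and S205 were again the top lines, and the next 2, R221 and S242, were also of cross A. The range over the lines was 3.37-fold, and without R202 and S205 it was 1.77-fold, nearer to that median of 1.57-fold.

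AOC2, which closes the ring, was near the bottom of the table at a median of 0.551 CPM per kilobase, above 1.04% of loci. The values of cross A were 0.259, 0.499 and 0.930 CPM in R202, R206 and R221 and at 6.66, 0.374 and 0.680 CPM in S205, S207 and S242. Those of cross B were 0.321 and 1.12 CPM in RP6 and RP8 and between 0.359 and 0.695 CPM in the 4 susceptible lines. Here R202 was the lowest line and S205 the highest, with 37 and 771 reads. Because 2 libraries reached 1 CPM (S205 and RP8), AOC2 was the member locus that did not pass the filter, and without the filter its log2 difference between phenotypes was -0.38 (limma adjusted p = 0.768). The cyclase contig with the highest level belonged to AOC4, another gene of the family, at a median of 60.3 CPM per kilobase, 94.3 CPM in R202 and 88.2 CPM in S205, against 60.7 to 105 CPM over all lines.

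OPR3, the peroxisomal reductase, varied least. Its 12 values ran from 19.0 CPM (SRP1) through a median of 21.5 CPM in the susceptible and 21.4 CPM in the resistant lines to 27.0 CPM in R202 and 32.2 CPM in S205. The remaining 10 lines lay within 1.27-fold of each other, and all 12 within 1.70-fold, close to the median of 1.76-fold over all tested loci. Its R-marked contig of 1446 bases held 34.8% (S205) to 40.9% (S242) of the OPR3 sum, and the S-marked contig of 1521 bases held the rest.

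MYC2, the basic helix-loop-helix factor that carries the jasmonate signal into transcription, stood at a median of 36.3 CPM per kilobase, above 82.5% of loci. Cross A held 149, 96.4 and 85.4 CPM in R202, R206 and R221 and at 141, 67.5 and 58.1 CPM in S205, S207 and S242. Cross B held 79.4 and 75.2 CPM in RP6 and RP8 and at 79.0, 59.8, 98.5 and 67.2 CPM in SP3, SP7, SP9 and SRP1. The 2 high lines stood well above SP9, which came next. SP9, a susceptible line, stood above R206, R221, RP6 and RP8, and SP3 lay between RP6 and RP8, so the phenotypes overlapped. The range was 2.57-fold, and 1.70-fold without R202 and S205, again near the median of 1.57-fold over all loci.

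JAZ1 and JAZ10 encode repressors that bind MYC2, and both are known in Arabidopsis as early jasmonate-induced genes. JAZ1 was a low transcript, at 1.97 CPM per kilobase, with 169 to 1292 reads per library. Its values in cross A were 9.05, 2.30 and 1.70 CPM in R202, R206 and R221 and at 5.94, 1.27 and 2.52 CPM in S205, S207 and S242. Its values in cross B were 3.06 and 4.38 CPM in RP6 and RP8 and at 3.69, 2.46, 4.59 and 2.52 CPM in SP3, SP7, SP9 and SRP1. The order R202, S205, SP9 and RP8 from the top repeated that of LOX2 except for the first pair. The range was 7.15-fold, larger than in 96.5% of tested loci.

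JAZ10 did not follow this order. Its level, 3.05 CPM per kilobase, was low as well, with at most 862 reads in a library. In cross A the values were 6.04, 4.06 and 3.29 CPM in R202, R206 and R221 and at 2.83, 3.62 and 3.52 CPM in S205, S207 and S242. In cross B they were 3.32 and 4.63 CPM in RP6 and RP8 and at 3.15, 2.74, 1.75 and 3.70 CPM in SP3, SP7, SP9 and SRP1. S205, among the 2 highest lines for 6 of the 8 loci, had rank 10 of 12 for JAZ10, and SP9, rank 3 for LOX2, was the lowest. Its 3 contigs, of 1006, 1061 and 1121 bases, held 25.6% to 33.8%, 35.1% to 44.7% and 25.8% to 36.6% of the sum. R202 was the highest and SP9 the lowest line for each of them, and S205 had ranks 6, 10 and 11. The 1006-base contig did not pass the filter on low values.

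VSP1, an acid phosphatase-like protein of leaves that is a classic marker of jasmonate response in Arabidopsis, had the widest range of the 7 loci tested. It was abundant, with a median of 504 CPM per kilobase, above 98.9% of loci. The 6 lines of cross A had 2026, 390.2 and 231 CPM in R202, R206 and R221 and at 1112, 399 and 368 CPM in S205, S207 and S242. The 6 lines of cross B had 241.9 and 660.5 CPM in RP6 and RP8 and at 1125, 659.6, 2004 and 433 CPM in SP3, SP7, SP9 and SRP1. SP9 nearly equalled R202, and SP3 had slightly more than S205. The range was 8.77-fold over 12 lines and 8.68-fold without R202 and S205.

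**Figure D2:**
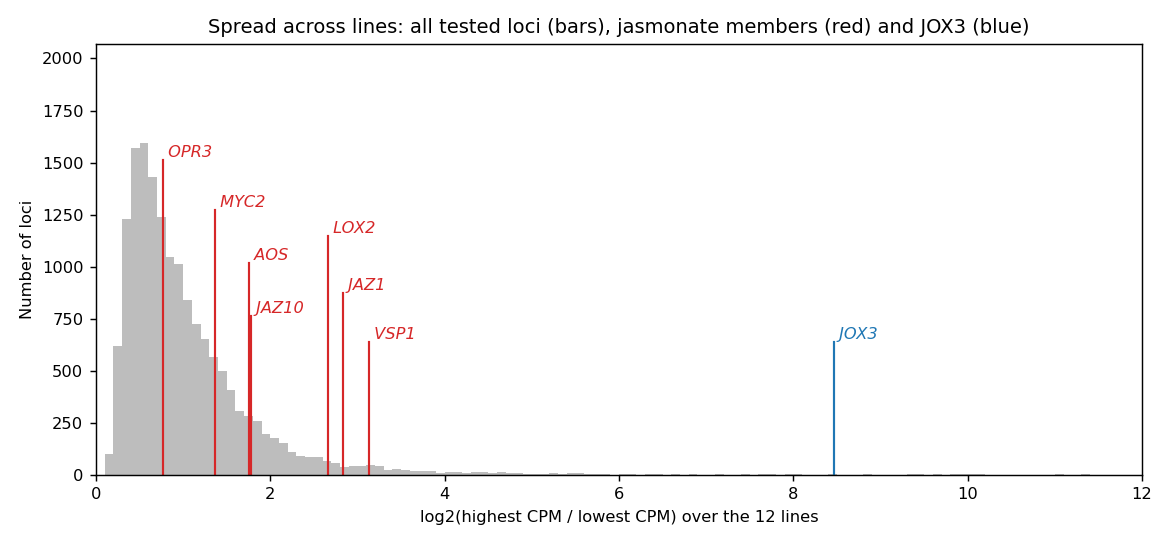
Number of loci (bars, 16051 tested) by the log2 ratio of the highest to the lowest CPM over the 12 lines, with the 7 tested jasmonate loci (red) and JOX3 (blue) marked by lines whose height carries no value. OPR3 lies in the body of the distribution, and LOX2, JAZ1 and VSP1 at 6.33-fold, 7.15-fold and 8.77-fold lie in its upper tail.

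The spread of these genes can be set against that of all loci. The median ratio of highest to lowest line over the 16051 tested loci was 1.76, with quartiles at 1.44 and 2.45. Of the 7 member loci, LOX2, JAZ1, VSP1, JAZ10, AOS and MYC2 were above the upper quartile, and OPR3 was below the median. Over the 44 other jasmonate loci tested, the median was 1.75, close to that of all loci. The line order was partly shared. The Spearman rho of locus sums over the 12 lines was 0.80 between LOX2 and OPR3, 0.75 between JAZ1 and VSP1, 0.73 between LOX2 and MYC2, 0.66 between LOX2 and JAZ1 and 0.65 between LOX2 and VSP1. JAZ10 had values between -0.08 and 0.19 with the other 6. All these points share the same 12 libraries, and R202 and S205 weigh in them. Over the other 10 lines, the rho of LOX2 was 0.65 with OPR3, 0.54 with MYC2, 0.43 with JAZ1 and 0.48 with VSP1, and that of JAZ1 with VSP1 was 0.61. The rho of AOS with MYC2 was 0.44 over 12 lines and 0.030 over 10, and that of AOS with VSP1 0.17 and -0.27.

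Between phenotypes, no jasmonate locus passed the test. The libraries were compared with limma on log2(CPM + 0.5) with cross as a covariate, and p-values were adjusted over all loci. Of the 7 tested loci 0 were called, and 0 had an unadjusted p under 0.05. Over all 16051 loci the called share was 0%, and 8.22% had an unadjusted p under 0.05. edgeR called 0 and DESeq2 20 of all loci, no member among them. The 5 resistant lines averaged 2920.0 ± 2106 CPM of LOX2 and the 7 susceptible lines 2799 ± 1975 CPM (± SD). The fitted log2 difference, resistant minus susceptible, was 0.0096 with an SE of 0.51, and limma gave an adjusted p of 0.996. The 95% interval ran from -1.10 to 1.12, so differences within those bounds are compatible with the data. These bounds are not a limit of detection, since a call needs a p-value adjusted over all loci. For VSP1 the resistant mean was 709.8 ± 756 CPM and the susceptible mean 872 ± 594 CPM. Its log2 difference was -0.52 with an SE of 0.60, and -0.81 without R202 and S205 (limma adjusted p = 0.744 and 0.999). Without R202 alone it was -1.02, without RP6 alone -0.12, and with the Rubisco small chain as a covariate -0.019.

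The smallest p among the members in this comparison belonged to JAZ10. The 5 resistant lines averaged 4.27 ± 1.14 CPM and the 7 susceptible lines 3.05 ± 0.684 CPM (± SD). The log2 difference was 0.39 with a 95% interval of -0.0034 to 0.79 (limma adjusted p = 0.587). The groups overlapped, with R221 and RP6 below S207, S242 and SRP1. For its 1061-base contig the log2 difference was 0.39 with an SE of 0.15 (limma adjusted p = 0.619). This was the only member contig of the 12 tested with an unadjusted p under 0.05, against 8.01% of all contigs. The log2 differences of AOS, MYC2, JAZ1 and OPR3 were 0.13, 0.22, 0.22 and -0.06, and their limma adjusted p-values ran from 0.714 to 0.861. The median over the 7 members was 0.13, and over all loci -0.01. No member separated the phenotypes without overlap, as 0.53% of all loci did.

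Between crosses, with phenotype as a covariate, the called share of all loci was 1.25%, and 0 of the 7 members were among them. AOS came nearest, with a mean of 30.7 ± 4.82 CPM over the 6 lines of cross B and 50.5 ± 21.5 CPM over the 6 of cross A (± SD). Its log2 difference was -0.61 with an SE of 0.23 (limma adjusted p = 0.289), and AOS was the only member with an unadjusted p under 0.05, as 13.6% of all loci had. The 2 groups overlapped, since RP8 and SP9 stood above R206 and S207, and no member separated the crosses, as 2.06% of loci did. Without R202 and S205 the AOS difference was -0.29 (limma adjusted p = 0.395). LOX2 had a log2 difference of -0.48 ± 0.50 and MYC2 one of -0.27 ± 0.23 (± SE). Without those 2 lines they were 0.13 and 0.047. JAZ1 and VSP1 had log2 differences of the other sign, 0.15 ± 0.39 and 0.21 ± 0.60 (± SE). Without the 2 lines these were 0.71 and 0.88, with limma adjusted p-values of 0.158 and 0.406. The difference of OPR3 was -0.17 ± 0.12 and that of JAZ10 -0.19 ± 0.18 (± SE). At the level of contigs 0 of 12 were called, against 2.18% of all contigs.

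**Figure D3:**
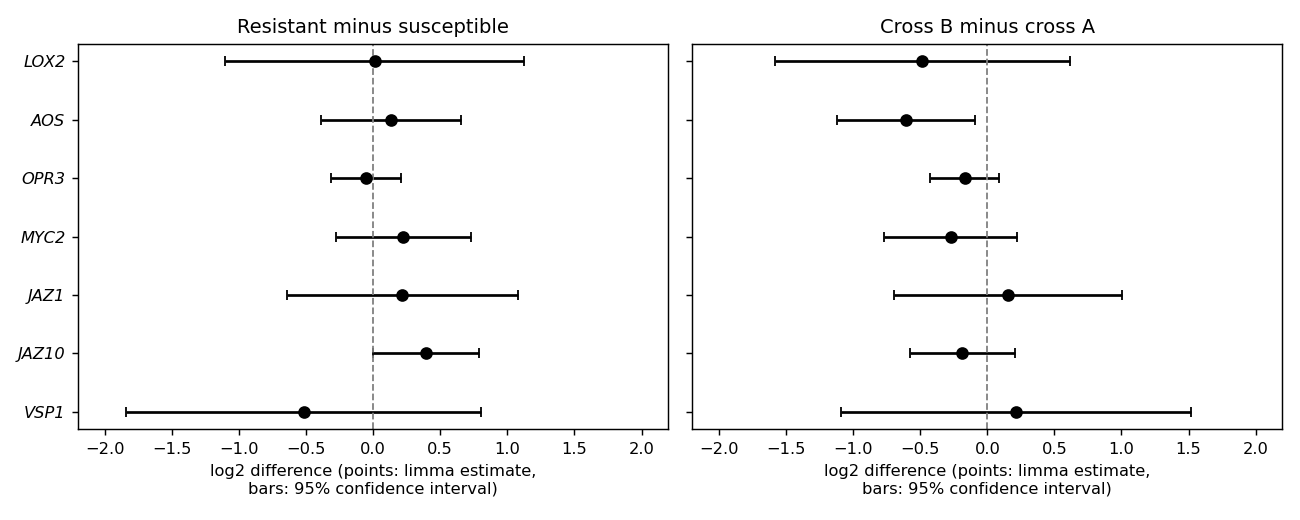
Log2 difference of each tested jasmonate locus between phenotypes (left, resistant minus susceptible) and between crosses (right, B minus A), as limma estimates (points) with 95% confidence intervals (bars). Every interval includes 0 except that of AOS between crosses, -1.12 to -0.09, whose adjusted p was 0.289.

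Within each cross, the phenotypes were compared over fewer lines. VSP1 averaged 882 ± 993 CPM over the 3 resistant lines of cross A and 626 ± 421 CPM over the 3 susceptible lines (± SD), and limma put the log2 difference at 0.055 with an SE of 0.83 and an adjusted p of 0.984. Without R202 (2026 CPM) and S205 that difference had the other sign, -0.35. The 2 resistant lines of cross B averaged 451 ± 296 CPM and the 4 susceptible lines 1056 ± 695 CPM, with a log2 difference of -1.16, an SE of 0.88 and a limma adjusted p of 0.9997. The difference between those values was -1.22 with an SE of 1.21 (limma adjusted p = 0.999). For JAZ10 the log2 difference was 0.34 with an SE of 0.26 in cross A (limma adjusted p = 0.686), and 0.44 with an SE of 0.27 in cross B (limma adjusted p = 0.9997). Of the 7 members 0 were called within cross A, within cross B or for the difference between crosses, where the called shares of all loci were 0%, 0.0249% and 0%. An unadjusted p under 0.05 was reached by 0 of the 7 in each, against 5.16%, 4.4% and 3.1% of all loci. In these 3 comparisons edgeR called 0, 4 and 0 of all loci, and DESeq2 9, 66 and 16. Over all 1370 member fits of the 25 settings tried, 0 had an adjusted p under 0.05, and the smallest was 0.0876 for AOS between crosses with DESeq2.

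Markers of other cell types and of handling moved with the 2 high lines in different ways. The summed level of the 6 mesophyll markers was lowest in R202 (30997 CPM) and highest in S205 (75402 CPM), with SP9 at 67028 CPM. The 2 lines with the most LOX2 thus lay at opposite ends of this sum. It rests mostly on RBCS1A, at 48880 CPM in S205 and 20593 CPM in R202. RCA and LFNR1 were also highest in S205 and lowest in R202. CAB1 was low in both, at 3298 CPM in S205 (rank 11 of 12) and 2289 CPM in R202 (rank 12). For CAB2 and LHCA1, S205 had ranks 5 and 3 and R202 ranks 11 and 12. The 2 phloem companion cell markers summed to 172 CPM in S205, 112 CPM in SP9 and 46.1 CPM in R202, within 30.6 to 172 CPM over all lines. Of 5 markers of touch and handling 3 had a contig, and their sum was 9.09 CPM in R202, the lowest line, and 14.6 CPM in S205. The sum was highest in SP7, at 42.3 CPM, of which TCH4 gave 31.2 CPM. The other markers ran differently, since ZAT10 was highest in S205 (2.62 CPM, against 1.21 CPM in R202), and TCH2 stood at 10.7 CPM in S205, the second highest line, and at 5.96 CPM in R202, the lowest. Of the 4 senescence markers only SEN1 had a contig, at 0.715 CPM in R202 and 2.52 CPM in S205. Markers of dividing cells, 3 of 5 with a contig, summed to 90.7 CPM in R202 and 73.5 CPM in S205, within 57.0 to 151 CPM. The sum rests mostly on CDKB2;1, and S205 was the lowest line for both cyclins, CYCB1;1 (11.1 CPM) and CYCB1;3 (9.75 CPM). The part of phloem, mesophyll, handling and dividing cells in the levels of S205 was not tested. With the Rubisco small chain level as a covariate, MYC2 had a log2 difference between phenotypes of 0.67 (limma adjusted p = 0.606) in place of 0.22. LOX2 had one of 0.71 (limma adjusted p = 0.821) in place of 0.0096. The unadjusted limma p of MYC2 in that fit was 0.0073, and 1118 of all 16051 loci had one under 0.05. Most susceptible lines had a larger Rubisco share than the resistant lines, so this covariate and the phenotype cannot be fully told apart.

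Other genes of the pathway give the setting in which these 8 loci stand. Of 72 further loci on a list of synthesis, inactivation, signalling and response genes and their relatives, 45 had a contig and 44 were tested. Between phenotypes 0 of the 44 were called, with 18 positive and 26 negative differences and a median of -0.01. Between crosses 0 of 44 were called, with 13 positive and 31 negative differences and a median of -0.07, where all loci had a median of 0.01 and 52.0% were positive. An unadjusted p under 0.05 was reached by 1 of them between phenotypes and by 6 between crosses, where 8.22% and 13.6% of all loci reached it, so neither count stood above the background.

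**Figure D4:**
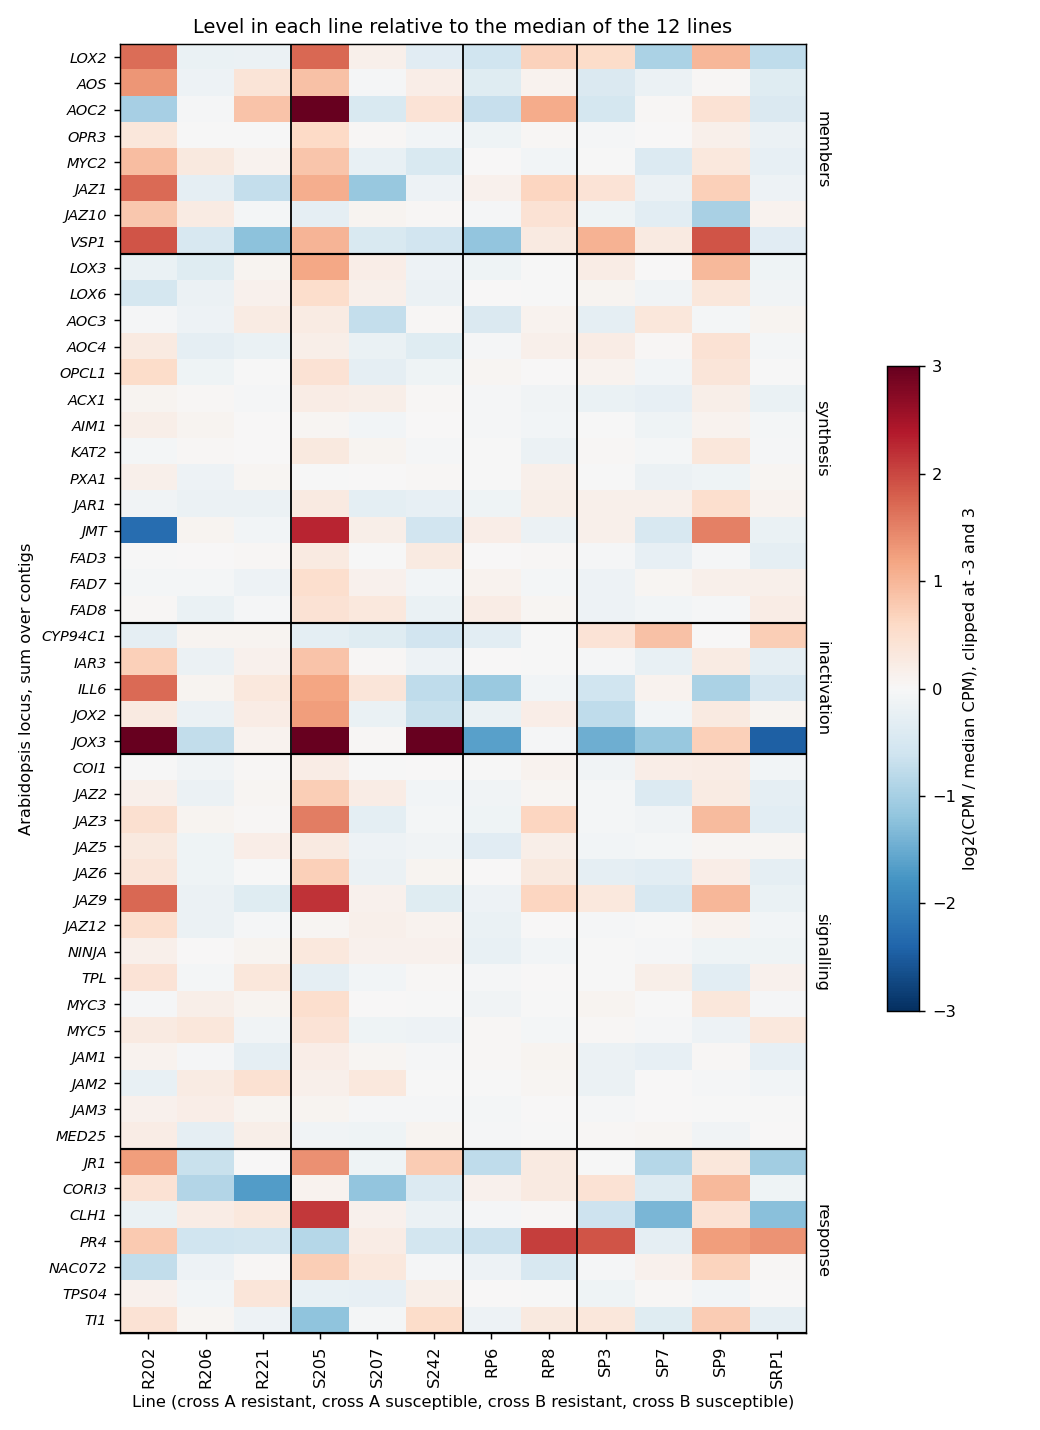
Level of the 8 member loci and of the other jasmonate loci by role (rows), in each of the 12 lines (columns, grouped by cross and phenotype), as log2 of CPM over the median of the 12 lines. Colours are clipped at -3 and 3. R202 and S205 are red for most member loci and for ILL6, IAR3, JAZ9, JR1 and JOX3, and pale for COI1, AIM1 and PXA1.

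The synthesis genes outside the list of members had ranges from narrow to very wide. AIM1 and PXA1, which serve the peroxisomal steps, ranged over 1.22-fold and 1.25-fold, and ACX1 over 1.40-fold. OPCL1, the ligase that activates the OPR3 product, had R202 and S205 as its top lines too, at 44.7 and 41.1 CPM against 25.5 to 39.6 CPM elsewhere. LOX3, another lipoxygenase of the jasmonate route, was high in S205 (21.3 CPM) and SP9 (18.6 CPM) and low in R202 (8.30 CPM). Its log2 difference between phenotypes was -0.44 with an SE of 0.23 (limma adjusted p = 0.589). KAT2, a thiolase of peroxisomal beta-oxidation, had one of -0.14 (limma adjusted p = 0.608). JAR1, which couples jasmonic acid to isoleucine, had a log2 difference between crosses of 0.26 with an SE of 0.11 (limma adjusted p = 0.336). JMT, which makes the volatile methyl ester, was highest in S205 (25.3 CPM) and lowest in R202 (1.06 CPM), a 23.9-fold range, with 3.44 to 14.7 CPM in the other lines. The lines alike for LOX2 thus lay at opposite ends for JMT.

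Of the 5 genes measured that remove or release the hormone, ILL6, IAR3 and JOX3 had R202 and S205 as their top lines, and JOX2 had S205 and SP9. ILL6 and IAR3, hydrolases that split the isoleucine conjugate, stood at 16.8 and 25.3 CPM in R202 and at 11.68 and 27.7 CPM in S205. The other 10 lines held 2.38 to 6.62 CPM of ILL6 and 12.8 to 18.4 CPM of IAR3. R202 and S205 had been picked for high levels, so this gap is no separate test of them. Over all loci R202 was in the top 2 for 20.1% and S205 for 33.1%. Between crosses the log2 difference of ILL6 was -0.89 with an SE of 0.35 (limma adjusted p = 0.299). CYP94C1, a cytochrome P450 that oxidizes the conjugate, stood at 1.09 CPM in R202 and 1.08 CPM in S205, within 0.884 to 2.43 CPM over all lines, and its log2 difference between crosses was 0.36 (limma adjusted p = 0.396).

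JOX3, a dioxygenase that hydroxylates jasmonic acid, had the widest range of the jasmonate loci, 353-fold. It stood at 72.3 CPM in R202, 92.7 CPM in S205 and 37.1 CPM in S242, all of cross A, and at 0.263 to 2.37 CPM in the other 9 lines. These high values came from 1 contig of 1193 bases, with 10061, 9930 and 5343 reads in R202, S205 and S242 and 2 to 9 reads in each other line. The second JOX3 contig, of 1264 bases, lay between 0.247 and 6.93 CPM in all lines, with S205 and SP9 the highest. S242 thus had the 1193-base contig at a high level while LOX2, JAZ1, MYC2 and VSP1 in that line had ranks 7 to 12 of 12, and OPR3 rank 10. AOS had rank 4 there, AOC2 rank 5 and JAZ10 rank 6, and the response gene JR1 had rank 3. The log2 difference of the JOX3 sum between crosses was -3.17 with an SE of 1.12 (limma adjusted p = 0.236).

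**Figure D5:**
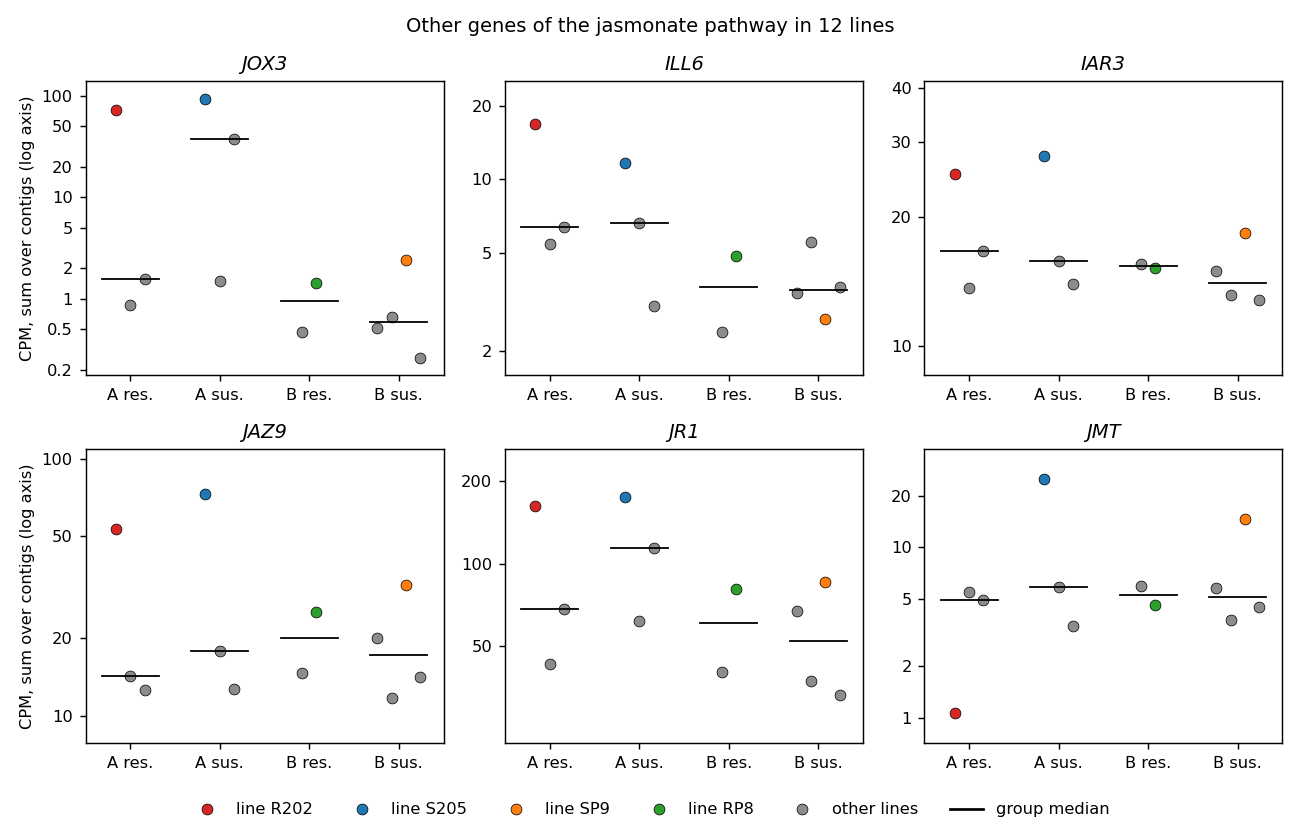
Level in CPM (log axis, sum over contigs) of 6 other jasmonate loci in the 12 lines, by cross and phenotype, with line colours and median bars as in the plot of the member loci. JOX3 is high in R202, S205 and S242, all of cross A, ILL6, IAR3 and JAZ9 in R202 and S205, and JMT in S205 and SP9 but not R202.

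Among signalling genes, JAZ9, a further repressor, repeated the order of LOX2. It stood at 53.5 CPM in R202, 73.0 CPM in S205, 32.3 CPM in SP9 and 25.4 CPM in RP8, and at 11.71 to 20.2 CPM in the rest. It was also among the 5 loci outside the members with the line order most like that of LOX2 (rho 0.90 over 12 lines). The others were AT4G01080, a trichome birefringence-like protein (0.94), AT2G29310, a Rossmann-fold protein (0.92), AT3G62700, a multidrug resistance-associated protein (0.91), and AT1G55920, a serine acetyltransferase (0.90). Nearest to VSP1 were AT4G33970, a leucine-rich repeat protein (0.97), AT2G43550, a knottin-type protein (0.94), AT1G63140, an O-methyltransferase (0.91), AT2G16980, a major facilitator protein (0.90), and AT5G54390, a HAL2-like protein (0.88). Nearest to JAZ1 were AT1G14040 of the EXS family (0.94), the hydrolases AT5G53050 (0.92) and AT3G23570 (0.90), OPCL1 (0.91), and AT1G14230, a nucleoside phosphatase (0.90). These values come from the same 12 libraries and were picked as the highest of all loci.

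The receptor and MYC3 had narrow ranges. COI1, the receptor, ranged over 1.27-fold, and MYC3, a relative of MYC2, over 1.51-fold. NINJA, the adaptor that links JAZ repressors to the corepressor TPL, was the 1 locus of the 44 whose crosses did not overlap, against 2.06% of all loci. It stood at 48.8 to 60.2 CPM in the 6 lines of cross A and at 41.4 to 48.1 CPM in those of cross B. The log2 difference was -0.25 with an SE of 0.06 (limma adjusted p = 0.0827), which did not pass the threshold. TPL had a log2 difference between phenotypes of 0.17 with an SE of 0.12 (limma adjusted p = 0.630), and JAM3, a bHLH repressor of jasmonate responses, one of 0.064 (limma adjusted p = 0.677).

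Response genes other than VSP1 were mixed. JR1, a jacalin-type lectin, stood at 163 CPM in R202, 175 CPM in S205 and 114 CPM in S242, against 33.0 to 85.9 CPM elsewhere. In the authors' deposited table of 277 contigs, which lists 0 contigs of the member loci, a JR1 contig is the only jasmonate contig, with a log2 fold change of -1.41 and an FDR of 1. CORI3, a coronatine-induced lyase, was highest in SP9 (1184 CPM), and its log2 difference between crosses was 0.80 with an SE of 0.36 (limma adjusted p = 0.363). CLH1, a chlorophyllase, stood at 269.9 CPM in S205 and 23.7 to 82.8 CPM in all other lines, R202 included. NAC072, a transcription factor gene, had the smallest p between phenotypes on the wider list, with a log2 difference of -0.55 and an SE of 0.17 (limma adjusted p = 0.587), and was lowest in R202 (6.54 CPM). TPS04, a terpene synthase, had one of 0.13 (limma adjusted p = 0.645).

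Within the crosses, the other jasmonate loci with the smallest p in each direction had limma adjusted p-values of 0.686 in cross A, 0.9997 in cross B and 0.999 when the 2 crosses were set against each other. In cross A the log2 differences, resistant minus susceptible, were 0.33 for TPL, 0.14 for JAM3, 0.60 for OPR1 (a relative of OPR3), -0.60 for NAC072, -0.27 for the fatty acid desaturase FAD7 and -0.35 for the lipoxygenase LOX6. In cross B they were 0.20 for JAM1 (a relative of JAM3), 0.16 for the desaturase FAD3, 0.13 for PXA1, -0.51 for CYP94C1, -0.48 for NAC072 and -0.66 for OPR1. The difference between crosses was 0.32 for FAD3, 0.33 for JAM1, 0.40 for the desaturase FAD8, -0.77 for CYP94C1, -1.26 for OPR1 and -0.34 for TPL. OPR1 had estimates of opposite sign in the 2 crosses, and none of these differences passed the threshold.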

How the data were processed

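Strand-specific poly(A) libraries were made from leaf RNA of 12 lines, per the labels' protocols. The authors deposited a normalized read signal per contig (CPM on a scaled library size), annotated by Arabidopsis locus, and a table of log2 fold changes with p-values and FDR. Tools named in the submitters' processing notes are Bowtie2, SAMtools 1.3.1, R 3.3 and edgeR, with TAIR10 as build, and the rule for reads matching several contigs is one not given in the sources used here. Locus sums were tested as log2(CPM + 0.5) with limma 3.58.1 (R 4.3.3, trend, Benjamini-Hochberg) over all 31337 contigs or 16051 loci that reached 1 CPM in 5 or more libraries. This scale understates changes of low contigs. The design was written for CPM and was kept for this signal, which differs from CPM by a factor per library. Such a factor shifts differences between lines, and the values summed to 1180040 in S205 and 935691 in R202. Rescaling by median ratios was among the settings tried. The smallest step of each column gave whole reads for 100% of values within 0.1, and edgeR 4.0.16 and DESeq2 1.42.0 were run on them as alternatives. Floors cover counting error only. The libraries of a group are different lines, so p-values measure the spread between lines, which may be partly technical. Steps were tested on simulated counts drawn with a common spread and without deviating lines, so that check does not cover lines such as R202 and S205.

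Members and lists were chosen with earlier results of these data known. Besides the members, the text names the 3 loci of the wider list with the smallest p in each direction of a comparison, and the 5 loci most like LOX2, VSP1 and JAZ1 by Spearman rho. AIM1, PXA1, ACX1, OPCL1, AOC4, JMT, IAR3, JOX2, COI1, MYC3, JR1 and CLH1 were named after their values were seen. So were the single contigs of JOX3 and the lines R202, S205, SP9 and RP8.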

Additional observations from a re-analysis of the deposited data

Results flagged for a closer look

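The 8 loci were checked in 5 groups of 4 to 7 lines (both phenotypes, both crosses and the susceptible lines of cross B), which share lines with each other. A line stood far from the others in 6 of these 40 checks, or 15%. Over all tested loci 9.44% of the same checks were flagged, and chance flags about 1 in 20 if values are normally distributed. AOC2 did not pass the filter of those loci, and its value in S205 was flagged in more than 1 group. The shares are therefore not of like sets. MYC2 in R202 stood at 149 CPM, apart from the other resistant lines, the next of which had 96.4 CPM. VSP1 in R202 stood at 2026 CPM, with the next resistant line at 660.5 CPM. The other 4 concern S205. Among susceptible lines AOS stood at 64.4 CPM in S205 with the next at 39.9 CPM, and OPR3 at 32.2 CPM with the next at 24.0 CPM. AOC2 stood at 6.66 CPM in S205 with the next susceptible line at 0.695 CPM, and the same value stood apart among the lines of cross A, where the next had 0.930 CPM. No member locus had a phenotype difference that differed between crosses past the threshold.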

How the results depend on the processing

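No member was called under any of the 25 settings, and of 324 member values recomputed 305 kept their direction and 19 reversed. LOX2 between phenotypes was -0.0208 with edgeR and -0.0235 with DESeq2, and -0.28 to 0.30 when each line was left out in turn. OPR3 was 0.16 with the Rubisco covariate and -0.12 to 0.040 leaving out lines, and AOS and JAZ1 ran from -0.0598 to 0.29 and from -0.10 to 0.44. MYC2 ran from 0.088 (without S242) to 0.39 (without S205), and VSP1 from -1.02 (without R202) to -0.12 (without RP6). Between crosses JAZ1 was -0.0866 with edgeR and -0.0845 with DESeq2. Leaving out lines, including R202 and S205 together (chosen after seeing the data), gave -0.70 to 0.13 for LOX2, -0.0826 to 0.71 for JAZ1, -0.42 to 0.0470 for MYC2 and -0.0435 to 0.88 for VSP1 between crosses. The cause of these reversals was not tested.

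Counts of all features called moved more. Between phenotypes, contigs went from 0 to 2 (pseudocount 0.1), 3 (edgeR), 84 (DESeq2) and 1 (no covariate), and 0 to 4 leaving out lines. Loci went from 0 to 20 (DESeq2), and 0 to 0 leaving out lines. Within cross A the count went from 0 to 1 (pseudocount 2), 9 (DESeq2) and 0 to 6 leaving out lines. Within cross B it went from 4 to 2 (pseudocount 2), 66 (DESeq2), 12 (Rubisco covariate), 7 (without R202 and S205) and 0 to 17 leaving out lines. For the difference between crosses it went from 0 to 16 (DESeq2), 2 (Rubisco covariate) and 0 to 7. Between crosses 682 contigs became 1742 (DESeq2), 1173 (Rubisco covariate), 406 (without R202 and S205) and 246 to 1072, and 200 loci became 772 (DESeq2), 479 (Rubisco covariate) and 54 to 270. No paired analysis was possible because the labels give the lines no replicate numbers shared between groups. The spread between lines limits what can be seen: the 95% intervals between phenotypes were -1.10 to 1.12 for LOX2 and -1.84 to 0.80 for VSP1, and between crosses -1.58 to 0.61 and -1.09 to 1.52.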
